A study of Mus musculus with 12 samples.

Results

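Glycolysis and the response to low oxygen were followed through 40 named genes in murine BrafV600E melanoma cells that had lost ptgs1, ptgs2, or ptges. The 40 genes were taken by name from 30705 gene names in the deposited table and comprised 19 genes of glucose uptake, glycolysis, and lactate release, 8 subunits and regulators of hypoxia-inducible factor (HIF), and 13 other classical low-oxygen targets. All 40 were found, and 34 had a mean of at least 1 RPKM (reads per kilobase of transcript, scaled to the library's reads) over the 12 samples and were tested, of which 16 were glycolysis genes, 7 HIF subunits and regulators, and 11 other targets. The levels of glycolysis genes were higher in ptges-KO cells than in scramble control cells for 12 of the 16 tested, beside 11.9% of all genes, and lower in ptgs1-KO cells for 9 of the 16, beside 4.61% of all genes (limma at an adjusted p under 0.05). With Tukey comparisons of untransformed RPKM these counts were 11 and 2, beside 634 and 138 of all 11282 genes. The Tukey p-values, already adjusted for the 4 groups, were adjusted again by Benjamini-Hochberg over all genes. Pgk1 went from a mean of 1000.5 ± 9.77 RPKM (SD, n = 3) in scramble to 2169.8 ± 132 RPKM in ptges-KO cells.

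RNA-seq was made from 4 groups of 3 samples each: scramble control cells, ptgs1-KO cells without COX-1, ptgs2-KO cells without COX-2, and ptges-KO cells without microsomal prostaglandin E synthase (mPGES-1). These enzymes act in prostaglandin synthesis. All 4 groups derive from a C57BL/6 mouse line and share its alleles, controls included. These are Braf+/LSL-V600E, the activating Braf mutation. They also include Tyr::CreERT2+/o, an inducible Cre recombinase under the tyrosinase promoter, and p16INK4a-/-. Per the study's methods the lines were made with CRISPR/Cas9, selected with puromycin, and subcloned by limiting dilution, so that an effect of the deletion and a property of the chosen clones cannot be told apart. The replicates of a line are described both as different subclones and as independent samples, so whether the SD over n = 3 holds the spread between clones is not known. Cells were in ordinary culture, and the labels name no oxygen level and no drug.

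Each targeted transcript was lowest in the line named for it: ptgs1 stood at 151 ± 11.5 RPKM in scramble and 16.02 ± 1.49 in ptgs1-KO cells, ptgs2 at 761 ± 14.2 and 79.8 ± 4.38 in ptgs2-KO cells, and ptges at 77.6 ± 2.43 and 37.1 ± 3.37 in ptges-KO cells. Ptges was also lower in ptgs1-KO cells (54.5 ± 2.76 RPKM, log2 fold change -0.50, SE 0.08, adjusted p = 0.0011) without overlap with scramble, as was ptgs2 (-0.36, SE 0.10, adjusted p = 0.0386). In ptgs2-KO cells ptges was below scramble without overlap as well, and was not called (-0.20, SE 0.08, adjusted p = 0.117). Depth, roughly estimated from the step between low values, was 13.3 to 16.9 M reads a sample. In ptgs1-KO replicate 3 the 45S ribosomal RNA features Rn45s and AK155692 held 13.5% of summed RPKM, against 0.528% to 4.79% in the other 11 samples. The count of members called in ptgs1-KO against scramble cells is therefore also given without that replicate. Of 9 melanocyte lineage markers only Mitf had a mean of at least 1 RPKM, while Sox10, Dct, Tyrp1, Mlana, and Kit stayed under 0.1 RPKM in every sample. Summed over all 9, these markers ranged from 1.96 to 5.23 RPKM, so the defining markers of pigment cells were at or near 0 in cells labelled as melanoma. Of 4 markers of neural crest or dedifferentiated melanoma, Axl averaged 912 RPKM, Jun 217, and Sox9 2.00, Ngfr stayed under 0.1 RPKM, and their sum was 869 to 1469 RPKM. Of the markers of fibroblasts, Pdgfra and Pdgfrb were detected, with 6 markers summing to between 9.56 and 35.4 RPKM, whereas Dcn and Lum stayed under 0.1 RPKM. Their part in the results was not tested.

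Glycolysis splits glucose into pyruvate, and lactate dehydrogenase turns pyruvate into lactate, which leaves the cell through monocarboxylate transporters. HIF is a pair of an oxygen-sensitive alpha subunit and ARNT. When oxygen is present, prolyl hydroxylases of the EGLN family mark the alpha subunit for destruction through VHL, and HIF1AN blocks its activity. HIF binds short DNA elements with the core ACGTG or GCGTG and raises glucose uptake, glycolysis, and a set of survival genes, and many tumors keep this programme on in the presence of oxygen. Most of this control acts on the alpha subunit as a protein, which RNA-seq does not measure.

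The windows of 250 bases before the annotated start of the members were searched for ACGTG and GCGTG on both strands, in RefSeq of build GRCm38.p6. RefSeq windows were found for 36 of the 40 members (50 windows, since several genes have more than one start). Ndrg1, Bnip3l, Bhlhe40, and Epas1 had no entry. At least 1 of these motifs lay in 38 of the 50 windows (76.0%), against 38.6% of all 32851 windows and 58.0% of the 9983 windows of the genes tested. The motif ACGTG alone lay in 42.0% of the members' windows, 16.6% of all windows, and 22.4% of windows of the genes tested. Among the 3 groups of members the share was 78.6% of 28 windows of glycolysis genes, 75.0% of 8 windows of HIF subunits and regulators, and 71.4% of 14 windows of other targets. A match is a description of the letters and not a binding site, and a window without a match says only that these letters are not in it. Matches that overlap, as in CACGTG, were counted at each start.

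The windows of 8 members are printed, chosen after their values and matches were seen, to show genes that differed between the lines with and without a match. All lie outside the annotated gene. Each runs 5′ to 3′ on the gene's strand, ends at the base before the start, and has the motif letters in capitals. Pgk1 (chrX:106186850-106187099, plus strand) holds 2 matches, starting 150 and 131 bases before the start. Pgam1 (chr19:41911621-41911870, plus strand) holds 3, Hk2 (chr6:82774455-82774704, minus strand) 2, Bnip3 (chr7:138909507-138909756, minus strand) 5, Egln1 (chr8:124949255-124949504, minus strand) 2, and Egln3 (chr12:54203875-54204124, minus strand) 1. Gpi1 (chr7:34230337-34230586, minus strand) and Tpi1 (chr6:124814159-124814408, minus strand) hold none, although both rose in ptges-KO cells, and a match or its absence was not related to the changes by a test.
Pgk1: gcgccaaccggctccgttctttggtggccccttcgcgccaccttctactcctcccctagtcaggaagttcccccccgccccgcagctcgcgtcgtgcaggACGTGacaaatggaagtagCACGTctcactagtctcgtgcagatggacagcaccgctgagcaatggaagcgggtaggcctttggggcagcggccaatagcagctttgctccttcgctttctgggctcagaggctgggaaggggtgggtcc
Pgam1: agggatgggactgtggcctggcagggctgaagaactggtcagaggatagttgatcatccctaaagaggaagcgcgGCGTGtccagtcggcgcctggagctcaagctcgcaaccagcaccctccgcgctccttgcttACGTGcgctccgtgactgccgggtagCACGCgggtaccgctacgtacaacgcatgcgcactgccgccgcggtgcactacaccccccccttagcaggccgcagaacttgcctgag
Hk2: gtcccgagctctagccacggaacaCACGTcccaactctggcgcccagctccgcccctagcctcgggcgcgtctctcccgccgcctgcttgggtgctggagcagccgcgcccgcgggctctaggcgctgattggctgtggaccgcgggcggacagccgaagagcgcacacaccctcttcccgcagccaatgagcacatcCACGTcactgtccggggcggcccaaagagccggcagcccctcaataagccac
Bnip3: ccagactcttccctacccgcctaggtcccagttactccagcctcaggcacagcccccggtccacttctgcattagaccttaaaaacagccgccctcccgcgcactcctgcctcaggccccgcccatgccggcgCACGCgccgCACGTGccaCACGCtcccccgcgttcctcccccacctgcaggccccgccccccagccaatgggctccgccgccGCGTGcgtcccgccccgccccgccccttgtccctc
Egln1: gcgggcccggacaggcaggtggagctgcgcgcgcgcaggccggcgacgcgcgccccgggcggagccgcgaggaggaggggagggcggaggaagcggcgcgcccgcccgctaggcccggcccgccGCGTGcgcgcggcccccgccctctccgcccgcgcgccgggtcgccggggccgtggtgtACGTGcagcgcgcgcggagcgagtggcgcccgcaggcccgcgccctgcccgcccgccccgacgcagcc
Egln3: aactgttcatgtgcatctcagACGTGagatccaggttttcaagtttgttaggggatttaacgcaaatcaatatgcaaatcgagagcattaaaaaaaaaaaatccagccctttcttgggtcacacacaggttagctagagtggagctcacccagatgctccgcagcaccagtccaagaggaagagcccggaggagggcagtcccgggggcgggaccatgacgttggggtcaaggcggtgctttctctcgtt
Gpi1: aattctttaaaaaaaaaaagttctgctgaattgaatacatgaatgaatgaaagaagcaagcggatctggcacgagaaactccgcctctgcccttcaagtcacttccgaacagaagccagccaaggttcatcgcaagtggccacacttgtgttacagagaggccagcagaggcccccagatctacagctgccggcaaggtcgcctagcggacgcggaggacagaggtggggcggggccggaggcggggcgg
Tpi1: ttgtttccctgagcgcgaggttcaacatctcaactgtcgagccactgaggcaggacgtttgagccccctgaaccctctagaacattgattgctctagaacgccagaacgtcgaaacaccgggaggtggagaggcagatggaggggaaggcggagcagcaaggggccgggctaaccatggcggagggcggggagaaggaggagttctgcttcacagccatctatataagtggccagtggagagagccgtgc

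The members' levels covered a wide range. Per length, as RPKM, Gapdh was the highest with a mean of 4787 RPKM over all samples (rank 13 of all features), followed by Eno1 (3512, rank 17) and Ldha (2100.0, rank 29), whereas Egln3 averaged 1.39 RPKM and the 6 genes that were not tested averaged under 1 RPKM over the 12 samples. The 19 glycolysis members summed to 1.61% ± 0.012 of all RPKM in scramble cells (SD, n = 3), 1.32% ± 0.12 in ptgs1-KO, 1.76% ± 0.14 in ptgs2-KO, and 2.43% ± 0.023 in ptges-KO cells. The lowest ptges-KO sample, at 2.42%, stood above the highest ptgs2-KO sample, at 1.86%. In ptgs1-KO cells the share was 1.41% in replicate 1, 1.36% in replicate 2, and 1.18% in replicate 3, the sample with the most ribosomal RNA.

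Compared with scramble cells, 24 of the 34 members tested changed in ptges-KO cells (22 higher and 2 lower, limma at an adjusted p under 0.05). Over all 11282 genes tested 26.3% were called, 11.9% higher and 14.4% lower, and the split of 1342 higher to 1627 lower became 1059 to 2363 when samples were scaled to the sum without the 20 highest features. In ptgs1-KO cells 14 members changed, 1 higher and 13 lower, beside a background of 9.26% of genes called (4.65% higher, 4.61% lower). Without ptgs1-KO replicate 3 the count was 14, with 2 higher and 12 lower, and it was 9 without scramble replicate 1. In ptgs2-KO cells 6 members changed, 3 in each direction, beside 11.1% of all genes (5.97% higher and 5.17% lower). That count was 3 without any 1 scramble sample or ptgs2-KO replicate 2, and 2 without ptgs2-KO replicate 3. All 3 knockouts are compared with the same scramble samples, and their values are given side by side. Groups did not overlap with scramble for 20.3% of all genes higher and 23% lower in ptges-KO, 13.7% and 13.2% in ptgs1-KO, and 19.4% and 15.8% in ptgs2-KO cells. Among the members, every value in ptges-KO cells was above scramble for 23 and below it for 3. The heatmap of all tested members gives each sample's level relative to the scramble mean.

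**Figure D1:**
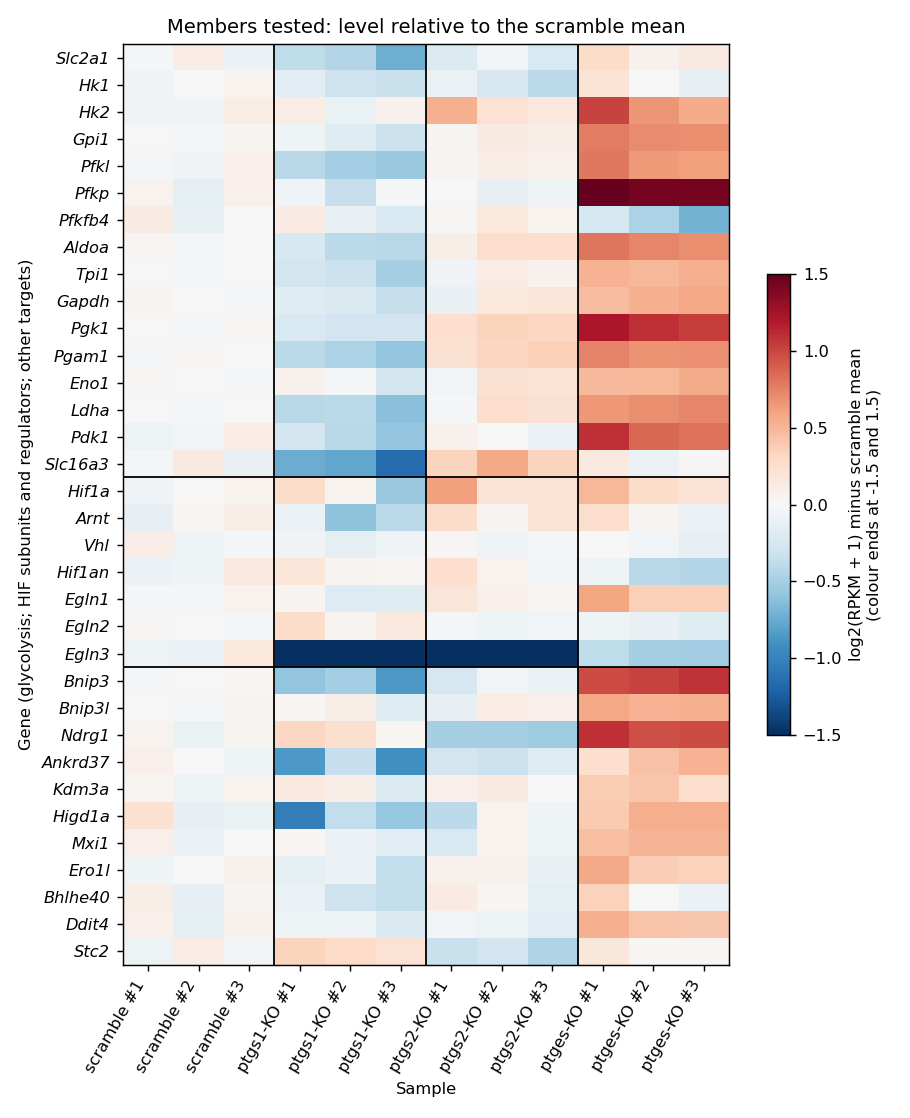
Level of each of the 34 tested members in each of the 12 samples, as log2(RPKM + 1) minus the mean of the 3 scramble samples (color; rows are genes in 3 groups, columns are samples). Most glycolysis rows are red in the 3 ptges-KO samples and blue in the 3 ptgs1-KO samples, Egln3 is dark blue in ptgs1-KO and ptgs2-KO cells, and Ndrg1 is red in ptges-KO and blue in ptgs2-KO cells.

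GLUT1, a glucose transporter, is encoded by Slc2a1. Slc2a1 stood at 262, 288 and 250.3 RPKM in the scramble samples, 205, 196 and 159.7 in ptgs1-KO, 232, 259 and 228 in ptgs2-KO and 324, 278 and 292 in ptges-KO cells. All ptgs1-KO samples were below all scramble samples, and the ptges-KO samples overlapped scramble. Slc2a1 fell in ptgs1-KO cells (log2 fold change ± SE of -0.52 ± 0.10, adjusted p = 0.00575) and had a log2 fold change of 0.16 in ptges-KO cells (adjusted p = 0.284). Hexokinases phosphorylate glucose. Hk1, the more abundant form here, had log2 fold changes from -0.27 to 0.03 against scramble, with none called. Hk2, the inducible form, stood at 28.1, 27.9 and 31.7 RPKM in the scramble samples, 31.6, 27.2 and 30.6 in ptgs1-KO, 42.7, 33.97 and 32.6 in ptgs2-KO and 60.2, 46.9 and 43.5 in ptges-KO cells. The 3 ptges-KO samples were all above every other sample. Hk2 rose in ptges-KO cells (log2 fold change 0.75 ± 0.13, adjusted p = 0.00103). In ptgs2-KO cells its log2 fold change was 0.30 (adjusted p = 0.148).

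The enzymes that follow hexokinase were higher in ptges-KO cells as well. Gpi1, which converts glucose 6-phosphate to fructose 6-phosphate, stood at 327, 322 and 337 RPKM in the scramble samples, 315, 289 and 263 in ptgs1-KO, 339, 361 and 351 in ptgs2-KO and 560.2, 537 and 534 in ptges-KO cells. All ptges-KO values exceeded all others, and the change was 0.72 (SE 0.07, adjusted p = 2.09e-05). Pfkl, a subunit of phosphofructokinase, the committed step, stood at 128, 126 and 138 RPKM in the scramble samples, 97.6, 91.8 and 88.9 in ptgs1-KO, 135, 139.7 and 137 in ptgs2-KO and 226, 203 and 202 in ptges-KO cells. The ptgs1-KO samples were all lowest and the ptges-KO samples all highest, with changes of -0.49 (SE 0.07, adjusted p = 0.000581) and 0.68 (SE 0.07, adjusted p = 2.21e-05). Pfkp, the platelet-type subunit, stood at 12.7, 11.1 and 12.9 RPKM in the scramble samples, 11.6, 9.41 and 11.9 in ptgs1-KO, 12.2, 11.1 and 11.6 in ptgs2-KO and 38.03, 34.8 and 34.9 in ptges-KO cells. Among the glycolysis members tested it had the largest change, 1.48 (SE 0.10, adjusted p = 4.58e-07) in ptges-KO cells, and the ptgs1-KO and ptgs2-KO samples overlapped scramble. In the other direction, Pfkfb4, which sets the level of the sugar phosphate that activates phosphofructokinase, stood at 4.39, 3.61 and 3.93 RPKM in the scramble samples, 4.39, 3.58 and 3.25 in ptgs1-KO, 4.01, 4.52 and 4.17 in ptgs2-KO and 3.13, 2.56 and 2.05 in ptges-KO cells. It fell in ptges-KO cells (-0.48 ± 0.13, adjusted p = 0.0176), and it was the only glycolysis member tested that was called lower there. That call was lost without scramble replicate 1 (-0.42, adjusted p = 0.0686), without ptges-KO replicate 2 (-0.48, adjusted p = 0.0526), and without ptges-KO replicate 3 (-0.37, adjusted p = 0.0787).

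From the splitting of the phosphorylated sugar to enolase, each step had a member that rose in ptges-KO cells. Pyruvate kinase, which makes pyruvate, is not among the members. Aldoa, aldolase, stood at 1107, 1072 and 1076 RPKM in the scramble samples, 917, 825 and 811 in ptgs1-KO, 1154, 1306 and 1305 in ptgs2-KO and 1893, 1809 and 1766 in ptges-KO cells. Every ptges-KO sample was above every other sample and every ptgs1-KO sample below, with changes of -0.35 (SE 0.09, adjusted p = 0.0198) in ptgs1-KO and 0.75 (SE 0.09, adjusted p = 4.52e-05) in ptges-KO cells. The ptgs1-KO call of Aldoa was lost with any 1 scramble sample or ptgs1-KO replicate 2 left out (adjusted p = 0.0634 to 0.0823). Tpi1, triosephosphate isomerase, stood at 885, 871 and 887 RPKM in the scramble samples, 726, 703 and 626 in ptgs1-KO, 846, 948 and 920.1 in ptgs2-KO and 1265, 1247 and 1283 in ptges-KO cells. Here the ptgs1-KO samples were all lowest and the ptges-KO samples all highest (-0.37 ± 0.08, adjusted p = 0.012 and 0.52 ± 0.08, adjusted p = 0.000542). Without scramble replicate 1 the ptgs1-KO change of Tpi1 was -0.36 (adjusted p = 0.0511). Gapdh, which also serves as a reference gene and loading control in the study's own qRT-PCR and Western blots, stood at 4514, 4402 and 4302 RPKM in the scramble samples, 3885, 3789.9 and 3464 in ptgs1-KO, 4091, 4935 and 4986 in ptgs2-KO and 6075, 6397 and 6609.6 in ptges-KO cells. Its level was higher in all 3 ptges-KO samples than in any other sample and rose by 0.53 (SE 0.11, adjusted p = 0.00449) against scramble. In ptgs1-KO cells, where all values were below scramble, it was not called (log2 fold change -0.25, adjusted p = 0.205).

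Pgk1, phosphoglycerate kinase, catalyzes a step that yields ATP. Pgk1 stood at 998, 992 and 1011 RPKM in the scramble samples, 851, 818 and 821 in ptgs1-KO, 1191, 1263 and 1244 in ptgs2-KO and 2316, 2134 and 2059.5 in ptges-KO cells. The 4 groups did not overlap, and the order from lowest to highest was ptgs1-KO, scramble, ptgs2-KO, and ptges-KO. Pgk1 rose by 1.11 (SE 0.08, adjusted p = 5.42e-07) in ptges-KO cells and by 0.30 (SE 0.08, adjusted p = 0.0246) in ptgs2-KO cells, and fell by 0.27 on the log2 scale in ptgs1-KO cells (SE 0.08, adjusted p = 0.0462). The call in ptgs1-KO cells was present in 6 of 22 settings, and it was lost in all 3 settings that leave out a scramble sample (adjusted p = 0.12 to 0.1355) and in all 3 that leave out a ptgs1-KO sample, with an adjusted p of 0.0614 without replicate 3. It was also lost without ptgs2-KO replicates 2 and 3 and without ptges-KO replicates 2 and 3 (adjusted p = 0.0588 to 0.0777). The call in ptgs2-KO cells was lost with each scramble sample left out and without ptgs2-KO replicates 2 and 3 (adjusted p = 0.0716 to 0.0872). The plot of 8 members by sample shows these levels.

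**Figure D2:**
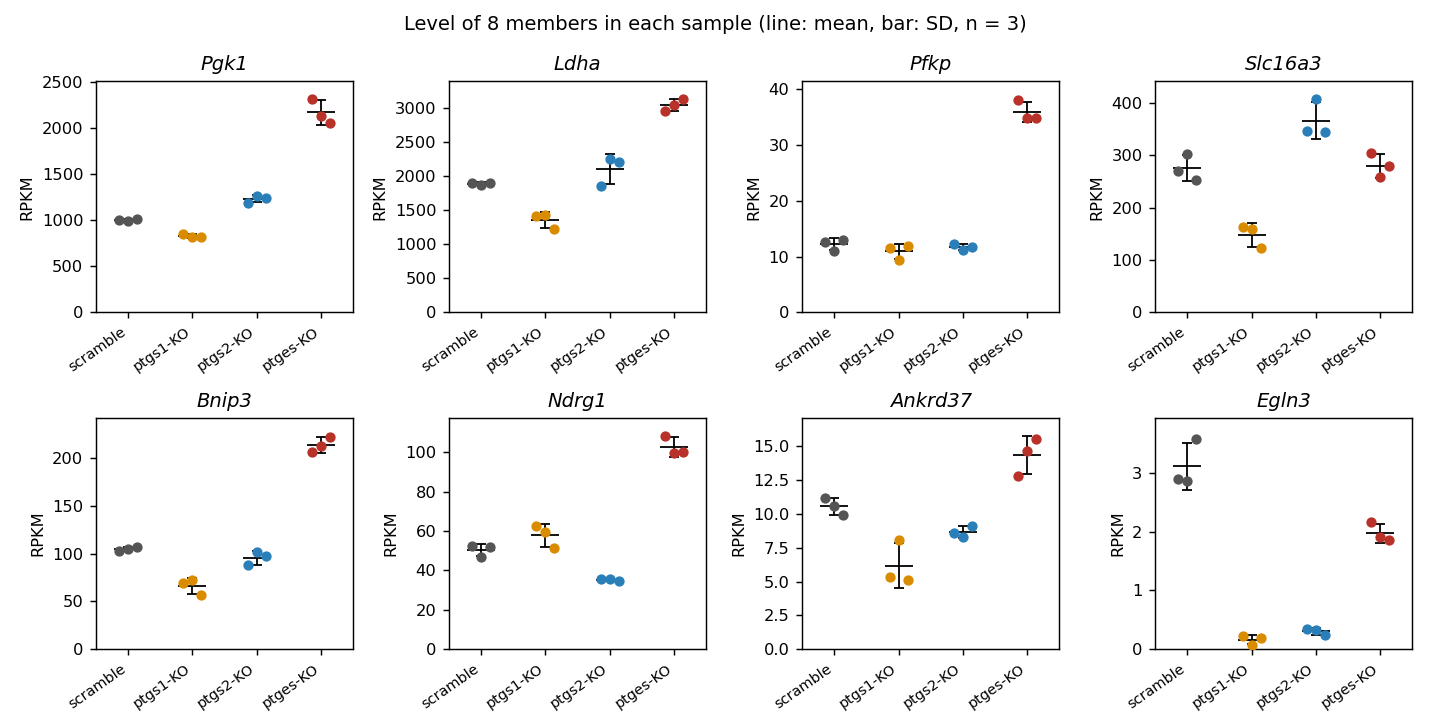
RPKM of Pgk1, Ldha, Pfkp, Slc16a3, Bnip3, Ndrg1, Ankrd37, and Egln3 in each sample of the 4 groups (points), with the mean (line) and SD (bar), n = 3 and axes from 0. Pgk1, Ldha, Pfkp, Bnip3, and Ndrg1 are highest in all 3 ptges-KO samples, Slc16a3 is highest in ptgs2-KO cells, and Egln3 lies near 0 in ptgs1-KO and ptgs2-KO cells.

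Pgam1, phosphoglycerate mutase, stood at 581, 593 and 587 RPKM in the scramble samples, 444, 423 and 389 in ptgs1-KO, 685, 732 and 752 in ptgs2-KO and 984, 936 and 947 in ptges-KO cells. The groups did not overlap, with ptgs1-KO lowest and ptges-KO highest, and the changes against scramble were -0.49 (SE 0.07, adjusted p = 0.000935) in ptgs1-KO, 0.30 (SE 0.07, adjusted p = 0.0212) in ptgs2-KO, and 0.70 (SE 0.07, adjusted p = 2.58e-05) in ptges-KO cells. The ptgs2-KO call was lost without any 1 scramble sample and without ptgs2-KO replicates 2 and 3 (adjusted p = 0.0639 to 0.0836). Eno1, enolase, stood at 3171, 3126 and 3103 RPKM in the scramble samples, 3278, 3098 and 2585 in ptgs1-KO, 3051, 3679 and 3617 in ptgs2-KO and 4405, 4436 and 4595 in ptges-KO cells. Reads of Eno1 can be shared with a near-identical copy, Gm5506, at 705 ± 7.27 RPKM in scramble and 963 ± 29.6 in ptges-KO cells, so the level of Eno1 is uncertain. Eno1 rose in ptges-KO cells (0.52 ± 0.12, adjusted p = 0.00581), and with quantile normalization the change was 0.27 (adjusted p = 0.167).

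The last steps set where pyruvate goes. Ldha, the A subunit of lactate dehydrogenase, stood at 1896, 1866 and 1903 RPKM in the scramble samples, 1415, 1429 and 1218 in ptgs1-KO, 1859, 2259.7 and 2206 in ptgs2-KO and 2959, 3052 and 3139 in ptges-KO cells. The ptgs1-KO samples were all lowest and the ptges-KO samples all highest (-0.48 ± 0.10, adjusted p = 0.00885 and 0.69 ± 0.10, adjusted p = 0.000386). Pdk1, the kinase that switches off pyruvate dehydrogenase and so keeps pyruvate out of mitochondria, stood at 52.3, 53.4 and 59.8 RPKM in the scramble samples, 45.3, 40.9 and 36.3 in ptgs1-KO, 57.4, 55.3 and 51.6 in ptgs2-KO and 118, 101 and 97.4 in ptges-KO cells. All ptges-KO samples were above all others, and the changes were -0.43 (SE 0.10, adjusted p = 0.0149) in ptgs1-KO and 0.92 (SE 0.10, adjusted p = 2.68e-05) in ptges-KO cells. Without scramble replicate 3 the ptgs1-KO change of Pdk1 was -0.37 (adjusted p = 0.07).

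Slc16a3, the lactate exporter MCT4, did not follow the enzymes in ptges-KO cells. Slc16a3 stood at 270.0, 302 and 253 RPKM in the scramble samples, 163, 159.8 and 122 in ptgs1-KO, 347, 407 and 345 in ptgs2-KO and 304, 258 and 279 in ptges-KO cells. The ptgs1-KO samples were all below scramble and the ptgs2-KO samples all above it, while the ptges-KO samples overlapped scramble. It fell in ptgs1-KO cells (-0.89 ± 0.12, adjusted p = 0.000263), rose in ptgs2-KO cells (0.41 ± 0.12, adjusted p = 0.0385), and had a log2 fold change of 0.03 in ptges-KO cells (95% confidence interval -0.225 to 0.28). The rise in ptgs2-KO cells was called in 14 of 22 settings. It was lost without scramble replicates 1 and 3 (adjusted p = 0.112 and 0.13), without each ptgs2-KO replicate (0.0598, 0.132, and 0.0636), and without ptges-KO replicate 3 (0.0518).

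The 16 glycolysis members had a median log2 fold change of 0.69 in ptges-KO cells, -0.31 in ptgs1-KO, and 0.085 in ptgs2-KO cells, against medians over all 11282 genes of -0.03, 0.0069, and 0.0088. In ptges-KO cells 12 were called higher and 1 lower, in ptgs1-KO cells 0 higher and 9 lower, and in ptgs2-KO cells 3 higher and 0 lower. Over all genes the shares were 11.9% higher and 14.4% lower in ptges-KO, 4.65% and 4.61% in ptgs1-KO, and 5.97% and 5.17% in ptgs2-KO cells. The 3 called in ptgs2-KO cells were Pgk1, Pgam1, and Slc16a3. With Tukey comparisons of untransformed RPKM, 11 were called higher and 0 lower in ptges-KO, 2 (Tpi1 and Pgam1) lower in ptgs1-KO, and 1 higher in ptgs2-KO cells. Of all 11282 genes, the Tukey comparisons called 634 higher and 517 lower in ptges-KO, 138 lower in ptgs1-KO, and 273 higher in ptgs2-KO cells. These calls used Tukey p-values adjusted again by Benjamini-Hochberg over all genes. The median in ptgs2-KO cells was 0.143 without ptgs2-KO replicate 1. The direction in ptges-KO and ptgs1-KO cells held on all 3 other scalings tried, since the median in ptges-KO cells was between 0.5241 and 0.7101 and that in ptgs1-KO cells between -0.2864 and -0.3258 with median ratio scaling, quantile normalization, and scaling to the sum without the 20 highest features. The plot of fold changes gives all 34 genes.

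**Figure D3:**
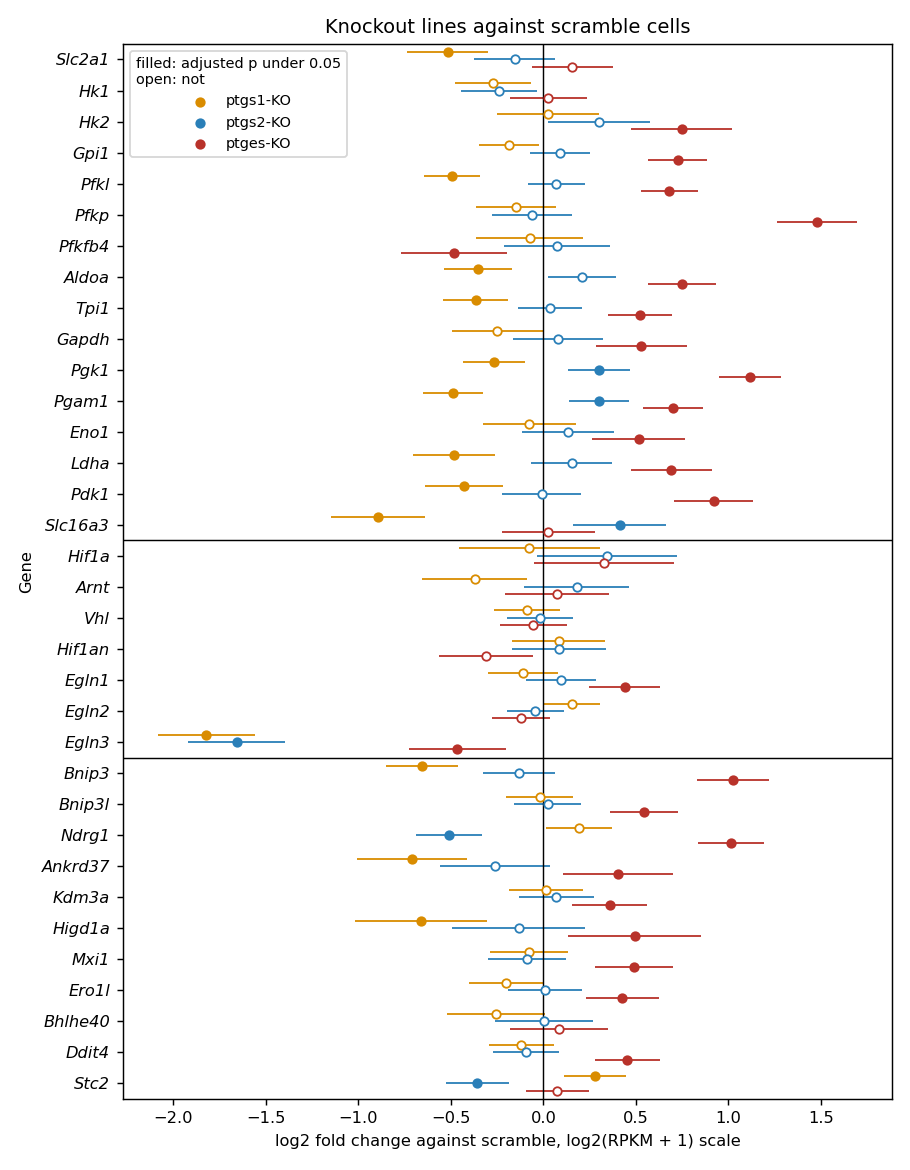
Log2 fold change against scramble on the log2(RPKM + 1) scale for the 34 tested members (rows) in the 3 knockout lines (colors), with 95% confidence intervals from limma; filled points have an adjusted p under 0.05. From Gpi1 to Pdk1 the ptges-KO points lie to the right of 0 except Pfkfb4, and Egln3 lies left of 0 in all 3 knockouts.

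For 13 members the calls against scramble went in opposite directions in a pair of knockouts, beside 3.11% of all genes (1.98% for ptgs1-KO with ptges-KO, 1.52% for ptgs1-KO with ptgs2-KO, and 0.753% for ptgs2-KO with ptges-KO). The knockouts were also compared with each other. Between ptges-KO and ptgs1-KO cells 31 of the 34 members were called (28 higher and 3 lower in ptges-KO), beside 30.2% of all genes (13.2% higher and 17% lower). All 16 glycolysis members tested were called, 15 higher in ptges-KO cells and Pfkfb4 lower. The largest differences among them were those of Pfkp (1.63 ± 0.10, adjusted p = 7.39e-08), Pgk1 (1.38 ± 0.08, adjusted p = 3.06e-08), and Pdk1 (1.35 ± 0.10, adjusted p = 3.89e-07). Between ptges-KO and ptgs2-KO cells 26 members were called (23 higher and 3 lower in ptges-KO), beside 16.6% of all genes (6.76% higher and 9.84% lower). With scaling to the sum without the 20 highest features, the genes called split into 1209 higher and 2764 lower against ptgs1-KO, from 1494 and 1915, and into 693 and 1752 against ptgs2-KO cells, from 763 and 1110. Slc16a3 was the lower of the pair in ptges-KO cells (-0.38 ± 0.12, adjusted p = 0.0391). That call was lost without scramble replicate 1, without each of the ptgs2-KO samples, and without ptges-KO replicates 2 and 3 (adjusted p = 0.05001 to 0.152). Between ptgs2-KO and ptgs1-KO cells 16 members were called (14 higher and 2 lower in ptgs2-KO), beside 23.6% of all genes (12.1% higher and 11.6% lower). Slc16a3 had the largest of these differences (1.31 ± 0.12, adjusted p = 3.74e-06), and Stc2 and Ndrg1 were the 2 lower ones.

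Shares within gene families were computed as a percent of the family's summed RPKM. The families were chosen after the changes of single genes had been seen, so the shares are a description with no test. Hk2 held 27% ± 0.86 of Hk1 and Hk2 in scramble, 31.3% ± 1.49 in ptgs1-KO, 35.1% ± 1.48 in ptgs2-KO, and 38.1% ± 1.44 in ptges-KO cells (SD, n = 3). Pfkp held 7.83% ± 0.42 of Pfkl, Pfkm, and Pfkp in scramble, 9.51% ± 1.10 in ptgs1-KO, 7.14% ± 0.44 in ptgs2-KO, and 13.6% ± 0.20 in ptges-KO cells. For Pfkl, the main subunit, the share was 83.8% ± 0.66 in scramble and 79.9% ± 0.35 in ptges-KO cells, with 80.4% in ptgs1-KO and 84.1% in ptgs2-KO cells.

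Slc16a3 held 63.9% ± 1.17 of Slc16a1 and Slc16a3, the main lactate transporters here, in scramble, 57.9% ± 1.43 in ptgs1-KO, 68% ± 0.93 in ptgs2-KO, and 69.3% ± 1.41 in ptges-KO cells. In ptges-KO cells, where the level of Slc16a3 overlapped scramble, that of Slc16a1 was 124 ± 15.97 RPKM against 155 ± 9.17 in scramble. Slc16a1 was also lower than scramble in ptgs1-KO cells, where Slc16a3 fell as well. The shares of the ptges-KO and ptgs2-KO samples overlapped. The Ldhb share of Ldha and Ldhb was 0.724% ± 0.062 in scramble, 1.37% ± 0.048 in ptgs1-KO, 0.739% ± 0.079 in ptgs2-KO, and 0.563% ± 0.029 in ptges-KO cells. Eno3, the muscle form of enolase, held 2.25% ± 0.21 of Eno1 and Eno3 in ptgs1-KO and 0.843% ± 0.086 in scramble cells. In ptgs2-KO cells it held 0.717% and in ptges-KO cells 0.400%, the lowest of the 4 groups.

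**Figure D4:**
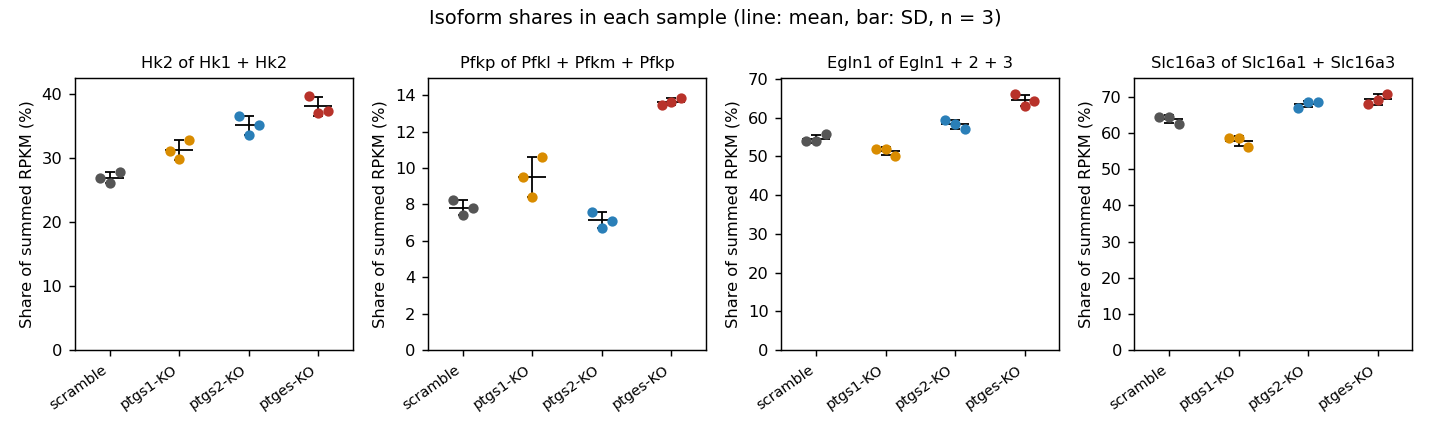
Share of summed RPKM (percent) of Hk2 among Hk1 and Hk2, Pfkp among phosphofructokinase subunits, Egln1 among the 3 prolyl hydroxylases, and Slc16a3 among Slc16a1 and Slc16a3, in each sample (points) with mean (line) and SD (bar), n = 3. The Hk2, Pfkp, and Egln1 shares are highest in the 3 ptges-KO samples.

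No HIF subunit that was tested was called against scramble. Hif1a, the oxygen-sensitive subunit, stood at 40.4, 41.7 and 43.6 RPKM in the scramble samples, 51.04, 43.3 and 28.2 in ptgs1-KO, 64.8, 48.3 and 48.7 in ptgs2-KO and 59.6, 50.95 and 48.4 in ptges-KO cells. Every ptgs2-KO and every ptges-KO sample was above every scramble sample, and the ptgs1-KO samples lay on both sides of scramble. None of the 3 knockouts was called (log2 fold changes -0.08, 0.34, and 0.33 with ptgs1-KO first and ptges-KO last, SE 0.18 each, adjusted p = 0.843, 0.229, and 0.194). With only the 2 groups in the model, the change in ptges-KO cells was called (0.33, adjusted p = 0.0287). Its partner Arnt stood at 22.4, 24.9 and 26.2 RPKM in the scramble samples, 22.8, 15.7 and 18.2 in ptgs1-KO, 29.8, 25.2 and 28.7 in ptgs2-KO and 29.7, 25.3 and 22.9 in ptges-KO cells. The groups overlapped with scramble in every knockout. Arnt was not called against scramble in any knockout, but was higher in ptgs2-KO than in ptgs1-KO cells (0.55 ± 0.13, adjusted p = 0.00803). Without ptgs1-KO replicate 1 it was called lower in ptgs1-KO than in scramble cells (-0.51, adjusted p = 0.0297). Vhl, the recognition subunit of the ubiquitin ligase for HIF, ranged from 12.1 to 14.6 RPKM with no call in any of the 6 comparisons.

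The prolyl hydroxylases diverged. Egln1, the main oxygen sensor, stood at 60.2, 59.4 and 63.2 RPKM in the scramble samples, 62.9, 53.3 and 53.4 in ptgs1-KO, 69.2, 64.5 and 62.1 in ptgs2-KO and 92.6, 78.6 and 78.4 in ptges-KO cells. All ptges-KO samples were above all others, and Egln1 rose there (0.44 ± 0.09, adjusted p = 0.00311) and in the direct comparisons with ptgs1-KO and ptgs2-KO cells (0.55 and 0.34). The call of Egln1 against ptgs2-KO cells was lost without ptgs2-KO replicates 2 and 3 and without ptges-KO replicate 1 (adjusted p = 0.0517 to 0.0587). Egln2 ranged from 41.9 to 57.9 RPKM and was not called against scramble in any knockout. Egln3, itself a classical HIF target, stood at 2.90, 2.87 and 3.58 RPKM in the scramble samples, 0.23, 0.07 and 0.19 in ptgs1-KO, 0.35, 0.32 and 0.24 in ptgs2-KO and 2.16, 1.91 and 1.86 in ptges-KO cells. The ptgs1-KO and ptgs2-KO samples were at most 0.35 RPKM and the scramble samples at least 2.87 RPKM, with the ptges-KO samples between. Egln3 passed the filter at a mean of 1 RPKM only through the scramble and ptges-KO groups, where it is high, so its count among the called members depends on that filter. Its changes are given from the model without a filter, as for Car9 and Car12. On the log2(RPKM + 1) scale, which understates a low gene, they were -1.82 (SE 0.09, adjusted p = 1.1e-06) in ptgs1-KO, -1.66 (SE 0.09, adjusted p = 1.97e-06) in ptgs2-KO, and -0.46 (SE 0.09, adjusted p = 0.00511) in ptges-KO cells. With a pseudocount of 0.1 the first of these reached -3.66 and the second -2.998. With the filter, the call in ptges-KO cells (adjusted p = 0.0132) was lost with that pseudocount (-0.63, adjusted p = 0.124), with quantile normalization (-0.33, adjusted p = 0.0506), without scramble replicate 3 (-0.39, adjusted p = 0.0599), and without ptges-KO replicate 2 (-0.45, adjusted p = 0.0525). Hif1an, the asparagine hydroxylase, was lower in ptges-KO cells than in ptgs1-KO (-0.39 ± 0.12, adjusted p = 0.0232) and ptgs2-KO cells (-0.39 ± 0.12, adjusted p = 0.0358) and was not called against scramble (-0.31, adjusted p = 0.069). It was called there with median ratio scaling, with scaling to the sum without the 20 highest features, and without ptges-KO replicate 1. The call against ptgs1-KO cells was lost without ptgs1-KO replicate 1 and ptges-KO replicates 2 and 3 (adjusted p = 0.0823 to 0.0957), and that against ptgs2-KO cells without ptgs2-KO replicates 1 and 2 and ptges-KO replicates 2 and 3 (adjusted p = 0.0748 to 0.147).

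Within this family, Egln1 held 54.5% ± 1.02 of summed Egln1, Egln2, and Egln3 in scramble, 51.4% ± 1.04 in ptgs1-KO, 58.3% ± 1.17 in ptgs2-KO, and 64.4% ± 1.45 in ptges-KO cells. The Egln3 share was 2.79% ± 0.32 in scramble, 0.146% ± 0.067 in ptgs1-KO, 0.270% ± 0.043 in ptgs2-KO, and 1.53% ± 0.0084 in ptges-KO cells. The median log2 fold change of the 7 tested HIF subunits and regulators was -0.054 in ptges-KO, -0.087 in ptgs1-KO, and 0.086 in ptgs2-KO cells. The first of these was 0.017 with quantile normalization and 0.01 with a filter at a mean of 10 RPKM, so its sign was not stable. With 1 sample left out it was between -0.093 (scramble replicate 2) and -0.0013 (scramble replicate 1), that in ptgs1-KO cells between -0.188 (ptgs1-KO replicate 1) and -0.070 (ptgs1-KO replicate 2), and that in ptgs2-KO cells between 0.0042 (ptgs2-KO replicate 1) and 0.130 (ptgs2-KO replicate 3).

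Among the other low-oxygen targets, 9 of the 11 tested rose in ptges-KO cells and none fell, beside 11.9% of all genes called higher and 14.4% lower. Bnip3 drives mitophagy, the removal of mitochondria. Bnip3 stood at 102, 104 and 107 RPKM in the scramble samples, 68.9, 72.9 and 56.99 in ptgs1-KO, 87.6, 101 and 97.6 in ptgs2-KO and 207, 212 and 222 in ptges-KO cells. All ptges-KO samples were above all other samples and all ptgs1-KO samples below all scramble samples. It rose by 1.02 (SE 0.09, adjusted p = 4.54e-06) in ptges-KO cells and fell by 0.66 (SE 0.09, adjusted p = 0.000383) in ptgs1-KO cells. Bnip3l, its relative, stood at 89.9, 88.7 and 92.97 RPKM in the scramble samples, 92.1, 97.2 and 79.5 in ptgs1-KO, 83.2, 97.6 and 95.8 in ptgs2-KO and 135, 130.2 and 132 in ptges-KO cells. It rose in ptges-KO cells (0.54 ± 0.08, adjusted p = 0.000547) and was higher there than in ptgs1-KO (0.56, adjusted p = 0.000266) and ptgs2-KO cells (0.52, adjusted p = 0.000918).

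Ndrg1, a stress- and iron-responsive protein, stood at 52.4, 47.01 and 51.7 RPKM in the scramble samples, 62.5, 59.7 and 51.2 in ptgs1-KO, 35.5, 35.4 and 34.4 in ptgs2-KO and 108, 99.5 and 100.2 in ptges-KO cells. All ptges-KO samples were highest and all ptgs2-KO samples lowest. Ndrg1 rose in ptges-KO cells (1.01 ± 0.08, adjusted p = 2.19e-06) and fell in ptgs2-KO cells (-0.51 ± 0.08, adjusted p = 0.00169), and in ptgs1-KO cells it had a log2 fold change of 0.19 (adjusted p = 0.178), which became a call without ptgs1-KO replicate 3 (0.28, adjusted p = 0.0354) and under median ratio scaling and quantile normalization. Stc2, a secreted glycoprotein, stood at 45.5, 52.03 and 46.6 RPKM in the scramble samples, 60.6, 58.7 and 55.96 in ptgs1-KO, 38.02, 39.1 and 34.8 in ptgs2-KO and 53.9, 49.2 and 48.98 in ptges-KO cells. All ptgs2-KO samples were lowest and all ptgs1-KO samples highest. It fell in ptgs2-KO cells (-0.36 ± 0.08, adjusted p = 0.011), a call lost without scramble replicate 2 (-0.30, adjusted p = 0.0546) and without ptgs2-KO replicate 3 (-0.31, adjusted p = 0.0523), and rose in ptgs1-KO cells (0.28 ± 0.08, adjusted p = 0.0418), where the call was present in 12 of 22 settings and was lost without scramble replicates 1 and 3, without ptgs1-KO replicates 1 and 2, without ptgs2-KO replicate 2, and without ptges-KO replicates 2 and 3 (adjusted p = 0.0559 to 0.166).

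Ankrd37 and Higd1a were at lower levels. Ankrd37, an ankyrin repeat protein known chiefly as a HIF target, stood at 11.2, 10.6 and 9.93 RPKM in the scramble samples, 5.36, 8.09 and 5.10 in ptgs1-KO, 8.57, 8.28 and 9.14 in ptgs2-KO and 12.8, 14.7 and 15.6 in ptges-KO cells. The ptgs1-KO samples were all below scramble and the ptges-KO samples all above it (-0.71 ± 0.14, adjusted p = 0.0052 and 0.41 ± 0.14, adjusted p = 0.0448). The ptges-KO call was lost under most alternatives, being present in 8 of 21 settings. It was lost without each scramble sample, each ptgs2-KO sample, and ptges-KO replicates 2 and 3 (adjusted p = 0.0507 to 0.141). Higd1a, a mitochondrial inner-membrane protein, stood at 15.02, 11.6 and 11.8 RPKM in the scramble samples, 5.67, 9.63 and 8.22 in ptgs1-KO, 9.44, 13.2 and 12.1 in ptgs2-KO and 17.1, 18.9 and 18.96 in ptges-KO cells. It fell in ptgs1-KO cells (-0.66 ± 0.17, adjusted p = 0.0241) and rose in ptges-KO cells (0.49 ± 0.17, adjusted p = 0.0435), and the ptges-KO samples were all above every other sample. The ptges-KO call was present in 12 of 22 settings and was lost without scramble replicates 2 and 3, ptgs1-KO replicate 3, ptgs2-KO replicate 3, and each ptges-KO sample (adjusted p = 0.0516 to 0.133). The ptgs1-KO call was lost without scramble replicate 1 (-0.55, adjusted p = 0.111) and without ptgs1-KO replicate 1 (-0.47, adjusted p = 0.0875).

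Mxi1, a MYC antagonist, stood at 10.2, 8.93 and 9.59 RPKM in the scramble samples, 9.76, 8.92 and 8.36 in ptgs1-KO, 7.98, 9.90 and 8.97 in ptgs2-KO and 13.5, 13.99 and 14.03 in ptges-KO cells. Ero1l, an oxidase of the endoplasmic reticulum, stood at 103, 108 and 112 RPKM in the scramble samples, 97.04, 101 and 83.1 in ptgs1-KO, 113, 113 and 99.2 in ptgs2-KO and 161, 139 and 137 in ptges-KO cells. Ddit4, an inhibitor of mTORC1, stood at 29.3, 25.4 and 29.1 RPKM in the scramble samples, 26.6, 26.3 and 23.9 in ptgs1-KO, 27.03, 26.4 and 24.8 in ptgs2-KO and 40.7, 37.8 and 37.2 in ptges-KO cells. In all 3 genes the ptges-KO samples were above every other sample, and the changes there were 0.49 (SE 0.10, adjusted p = 0.00277), 0.43 (SE 0.09, adjusted p = 0.00468), and 0.45 (SE 0.08, adjusted p = 0.00157). Kdm3a, a histone demethylase, was higher in ptges-KO cells as well (0.36 ± 0.09, adjusted p = 0.0134). That call was lost without scramble replicate 2 (0.32, adjusted p = 0.055) and without ptges-KO replicate 2 (0.33, adjusted p = 0.0579). Bhlhe40, a repressor, had log2 fold changes from -0.26 to 0.09 with no call against scramble. The median of the 11 targets was 0.45 in ptges-KO, -0.12 in ptgs1-KO, and -0.093 in ptgs2-KO cells. With 1 sample left out the median in ptgs1-KO cells was between -0.184 (scramble replicate 2) and -0.071 (ptgs1-KO replicate 3), and that in ptgs2-KO cells between -0.156 (ptgs2-KO replicate 2) and -0.048 (scramble replicate 1).

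The members averaging under 1 RPKM were outside the tests. Car9 and Car12, the carbonic anhydrases of the cell surface, stood at 0.6 to 1.02 RPKM and 0.58 to 0.71 RPKM in scramble samples and at up to 0.15 RPKM and 0.29 RPKM in the knockout samples. In both genes no knockout sample reached a scramble sample. Fitted without the filter on low values, they were called lower in all 3 knockouts (Car9 adjusted p = 0.00032, 0.000622, and 0.000178, Car12 adjusted p = 6.77e-05, 0.0028, and 0.000259, with ptgs1-KO first and ptges-KO last). Epas1, the HIF-2 alpha subunit, stood at 0.86 to 1.03 RPKM in scramble and 0.31 to 0.48 RPKM in ptges-KO cells, and was called lower there (adjusted p = 0.000861). Eno2 was lower in ptgs2-KO than in scramble cells (adjusted p = 0.0392), and Pfkfb3 and Aldoc had no call in any of the 6 comparisons.

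Other genes of the same pathways, listed by function and no members, were counted beside these. The result of Adm was known from earlier results of these data when it was listed. Of 18 tested other glycolysis genes, 8 were called higher and 4 lower in ptges-KO cells. In ptgs1-KO cells 2 were higher and 2 lower, and in ptgs2-KO cells 0 were higher and 1 lower. Their median log2 fold change was 0.071 in ptges-KO, -0.094 in ptgs1-KO, and 0.030 in ptgs2-KO cells. The medians of the 16 glycolysis members were 0.69, -0.31, and 0.085 in the same order. Over all genes 11.9% were called higher and 14.4% lower in ptges-KO, 4.65% and 4.61% in ptgs1-KO, and 5.97% and 5.17% in ptgs2-KO cells, and the same shares stand beside the counts that follow. Eno3 rose in ptgs1-KO cells (1.33 ± 0.11, adjusted p = 2.44e-06) and fell in ptges-KO cells (-0.54 ± 0.11, adjusted p = 0.00271). Of 24 tested other low-oxygen genes, 8 rose and 1 fell in ptges-KO cells. In ptgs1-KO cells 4 were higher and 7 lower, and in ptgs2-KO cells 3 were higher and 2 lower. The median of the 24 was 0.22 in ptges-KO, -0.12 in ptgs1-KO, and 0.070 in ptgs2-KO cells. Adm, adrenomedullin, stood at 5.19 ± 0.50 RPKM in scramble and 57.5 ± 5.92 in ptges-KO cells, and at 0.07 ± 0.06 in ptgs1-KO and 0.14 ± 0.04 in ptgs2-KO cells. It passed the filter at a mean of 1 RPKM only through the scramble and ptges-KO groups, where it is high. The counts of other low-oxygen genes include Adm and so depend on that filter. P4ha2, a collagen prolyl hydroxylase subunit, fell in ptgs1-KO (-0.46 ± 0.12, adjusted p = 0.0315) and rose in ptges-KO cells (0.92 ± 0.12, adjusted p = 0.000161). Ak4 fell in ptgs1-KO cells (-1.10 ± 0.16, adjusted p = 0.000782). Vldlr rose in ptgs1-KO (0.51 ± 0.11, adjusted p = 0.00871) and fell in ptgs2-KO cells (-0.71 ± 0.11, adjusted p = 0.00108), and Arnt2 rose in ptgs1-KO cells (1.09 ± 0.13, adjusted p = 8.87e-05).

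Genes of the ATF4 stress response, which also controls Ddit4, Stc2, and Ero1l, were called higher for 7 of 14 and lower for 1 in ptges-KO cells, 6 higher and 1 lower in ptgs1-KO, and 1 higher and 3 lower in ptgs2-KO cells. Vldlr is counted both here and among the other low-oxygen genes. Of 10 proliferation markers, 2 were higher in ptges-KO cells, 1 was lower in ptgs1-KO, and 1 was higher in ptgs2-KO cells, which lies near the share of all genes called (26.3%, 9.26%, and 11.1%). Their part in the changes of the members was not tested.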

How the data were processed

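Per the study's methods, mRNA libraries were made from the extracted RNA and sequenced with 101 bp paired-end reads. The 12 samples (3 of scramble cells and 3 of each knockout) were grouped by their labels. The labels name mm10. The aligner and counter are not given in the sources used here. The authors deposited RPKM values to 2 decimals, without counts. Sums were 878504 to 903881 per sample. Depth was estimated from the step between 128 to 207 low values a sample, with the lowest score in ptgs1-KO replicate 1 (0.184). In every sample another step scored close to the best, as in ptges-KO replicate 3 (0.291 beside 0.311). The depths are therefore approximate, and no counting intervals were computed. No pair of samples shared over 0.514% of values.

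The 11282 genes averaging 1 RPKM or more were tested with limma 3.58.1 after adding a pseudocount of 1 and taking log2 (lmFit and eBayes with trend, R 4.3.3), all 12 samples in a model of 4 groups, with Benjamini-Hochberg adjustment over all genes in each of 6 comparisons and a call at an adjusted p under 0.05. Fold changes are on that scale, which understates low genes. P-values measure the spread between these samples, which may be partly technical. Shares within gene families were not tested. Python 3.11.15 and matplotlib 3.10.9 were used for figures. The model was tested on simulated data.

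The members and lists were chosen with earlier results of these data known. All 40 members could be named. Values of each sample were given for those called with a log2 change of 0.5 or more in size in any comparison. They were also given for Hif1a, which was not called in the main model. Other pathway genes were named from 1 upward, and also where they enter a family share. Alternatives were no filter, a pseudocount of 0.1, a filter at 10 RPKM, median ratio scaling, quantile normalization, a replicate block, only the 2 groups compared, Tukey comparisons, each replicate left out, and, chosen after seeing the data, scaling to the sum without the 20 highest features. Outside the replicate block, replicate numbers were not used to pair the samples, since no source says that equal numbers mark samples handled together. Another pathway gene that the naming rule covers is not reported here.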

Additional observations from a re-analysis of the deposited data

Results flagged for a closer look

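For 13 of the 34 members tested the change against scramble was called in opposite directions in a pair of knockouts, as it was for 3.11% of all 11282 genes. Both changes are measured against the same scramble samples, and the members were picked for their opposite calls, which fixes the sign of the direct difference between the knockouts. The log2 differences are therefore given as a description, with no test.

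Between ptges-KO and ptgs1-KO cells, where 1.98% of all genes were called in opposite directions, 10 members were higher in ptges-KO cells: Pfkl by 1.17, Aldoa by 1.10, Tpi1 by 0.89, Pgk1 by 1.38, Pgam1 by 1.19, Ldha by 1.17, Pdk1 by 1.35, Bnip3 by 1.68, Ankrd37 by 1.12, and Higd1a by 1.15. Between ptgs2-KO and ptgs1-KO cells (1.52% of all genes), Pgk1 differed by 0.57, Pgam1 by 0.79, and Slc16a3 by 1.31, all higher in ptgs2-KO cells, and Stc2 by -0.63, lower in ptgs2-KO cells. For ptges-KO against ptgs2-KO cells (0.753% of all genes), Ndrg1 was higher by 1.52 in the former. In 9 of the 13 members a call against scramble was lost when 1 sample was left out: those of Aldoa, Tpi1, Pgk1, Pdk1, and Higd1a in ptgs1-KO cells, of Ankrd37 and Higd1a in ptges-KO cells, of Pgk1, Pgam1, and Slc16a3 in ptgs2-KO cells, and of Stc2 in both ptgs1-KO and ptgs2-KO cells. Pfkl, Ldha, Bnip3, and Ndrg1 kept both calls without any 1 sample, and Pgam1 kept those in ptgs1-KO and ptges-KO cells.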

How the results depend on the processing

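Over all 34 members, 6 comparisons, and 21 alternatives, where tested, no called fold change reversed its direction. 3991 values kept their side of the threshold, 226 lost the call, and 49 gained it. Members called in ptgs1-KO against scramble numbered 4 with the Tukey comparisons of untransformed RPKM (0 higher, 4 lower), those in ptgs2-KO against scramble 2, and those in ptgs2-KO against ptgs1-KO cells 10. With each replicate left out, the counts ranged from 9 to 14 in ptgs1-KO, 2 to 6 in ptgs2-KO, and 19 to 24 in ptges-KO cells against scramble, from 25 to 31 between ptges-KO and ptgs1-KO, from 20 to 28 between ptges-KO and ptgs2-KO, and from 12 to 17 between ptgs2-KO and ptgs1-KO cells. The median of the glycolysis members in ptges-KO cells was 0.529 with no filter, where 19 genes enter, 0.5241 with quantile normalization, 0.617 with scaling to the sum without the 20 highest features, and 0.6196 to 0.6997 with replicates left out. The median of the other targets in ptgs1-KO cells was -0.2021 with no filter. Causes were not tested, beyond the larger number of genes without the filter.

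Over all genes, the Tukey comparisons called 361, 420, and 1151 genes against scramble, with ptgs1-KO first and ptges-KO last, (1045, 1257, and 2969 in the limma model), and 639, 1590, and 1300 between ptges-KO and ptgs2-KO, ptges-KO and ptgs1-KO, and ptgs2-KO and ptgs1-KO cells (1873, 3409, and 2665). A filter at 10 RPKM left 582 in ptgs1-KO, and median ratio scaling gave 1926 in ptgs2-KO cells. Leaving out single samples gave 645 (scramble replicate 1) and 658 (scramble replicate 2) in ptgs1-KO cells, 722, 771, and 829 (scramble replicates 1, 2, and 3), 822 and 802 (ptgs2-KO replicates 1 and 3) in ptgs2-KO, 1936 (ptges-KO replicate 2) in ptges-KO cells, and 1209, 1104, and 1193 for ptges-KO against ptgs2-KO (without ptgs2-KO replicate 1 and ptges-KO replicates 2 and 3). The largest shift of the median of all genes under a scaling was -0.067 (from -0.038 to -0.104), between ptges-KO and ptgs1-KO cells with scaling to the sum without the 20 highest features.

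With the replicate number as a block, 13 members were called in ptgs1-KO, 6 in ptgs2-KO, and 23 in ptges-KO cells against scramble, and 31, 28, and 16 between ptges-KO and ptgs1-KO, ptges-KO and ptgs2-KO, and ptgs2-KO and ptgs1-KO cells. The block ended the calls of Pgk1 in ptgs1-KO and Ankrd37 in ptges-KO cells against scramble and of Eno1 between ptges-KO and ptgs2-KO cells, and added Slc2a1, Hk1, and Kdm3a to the last. Deviations of same-numbered samples correlated with a mean r of 0.0123 over 18 pairs (-0.341 to 0.566, 5 of 18 over 0.1), against -0.00456 for different numbers. Deviations within a group sum to 0, which ties these means to each other. Whether same-numbered samples were handled together is therefore not known. The lack of counts, 3 samples a group, and clonal lines limit these results, and changes under about 1 RPKM are the least certain.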
